A study of Drosophila melanogaster with 18 samples.

Results

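Hox genes and their cofactors were followed passage by passage in 2 Drosophila melanogaster cell lines, R3 and R7. The 10 genes are the Hox genes lab, pb, Dfd, Scr, Antp, Ubx, abd-A and Abd-B and the cofactor genes exd and hth. A gene was measured by its probe sets that carried its symbol alone in the platform annotation, and by the brightest of them where it had several. Of the 10 genes, 4 had such a probe set, pb, Dfd, Scr and Antp, among 11982 genes measured in this way in all. The other 6 genes, lab, Ubx, abd-A, Abd-B, exd and hth, were not analysed here. An intensity of 32 was taken as the floor below which differences between arrays were not read. Dfd, Scr and Antp were above it on at least 2 of the 18 arrays and were tested, and pb was not. Dfd passed that filter through its R7 early and P4 arrays alone.

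Each line was sampled at successive passages (P) while the cultures were being established, on 9 arrays per line. In R7 the arrays were P2 in 2 replicates with P3 (early), P4, P7 and P8 (intermediate), and P16, P17 and P19 (late). In R3 they were P2 in 2 replicates (early), P5 to P8 (intermediate), and P16, P17 and P19 (late). R7 P4 formed a separate group, since passage 4 falls in the labelled ranges of both the early and the intermediate stage. Cells of both lines were grown in Schneider's medium with foetal bovine serum. Genotype, tissue of origin and clonality are not given in the sources used here. Most arrays of a group are different passages of a line and not separate cultures. The p-values therefore measure spread among passages and arrays, and only where values lie above the floor. Passage cannot be told apart from time in culture.

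Hox genes encode homeodomain transcription factors that give the segments of the fly their identities along the head to tail axis. They lie in 2 complexes. The Antennapedia complex holds lab, pb, Dfd, Scr and Antp, in that order, and serves the head and the front of the thorax. The bithorax complex holds Ubx, abd-A and Abd-B and serves the rear of the thorax and the abdomen. Exd and Hth are homeodomain proteins of the TALE class that bind DNA together with Hox proteins. Once set in the embryo, the on or off state of a Hox gene is kept through cell division by the Polycomb group, which maintains silence, and the trithorax group, which maintains activity.

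Array medians lay between 23.2 and 30.2, and between 44.1% and 48.9% of probe sets were above the floor. In R3, 2 arrays stood apart from their labelled neighbours. The mean absolute log2 difference from R3 P19 was 0.423 to R3 P16 and 0.424 to R3 P17, but 0.173 to R3 P2 replicate 1. That from R3 P2 replicate 2 was 0.372 to R3 P2 replicate 1, but 0.199 to R3 P5 and 0.186 to R3 P6. Values without both of them follow the R3 results of the members, of Ama and of the Polycomb group below.

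The members of the Antennapedia complex that could be measured were detected in R7 cultures at low passage and not at high passage, with pb as the exception. Dfd, Scr and Antp, which follow one another in the complex in the order of their body regions with ftz between Scr and Antp, were all above the floor on every R7 array of P2, P3 and P4. All 3 were below it on every R7 array of P16, P17 and P19. In R3, Dfd was never above the floor, and Scr and Antp were above it only on P2 replicate 1 and P19. The gene pb, which lies nearer the head end of the complex, stayed below the floor on all 18 arrays.

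**Figure D1:**
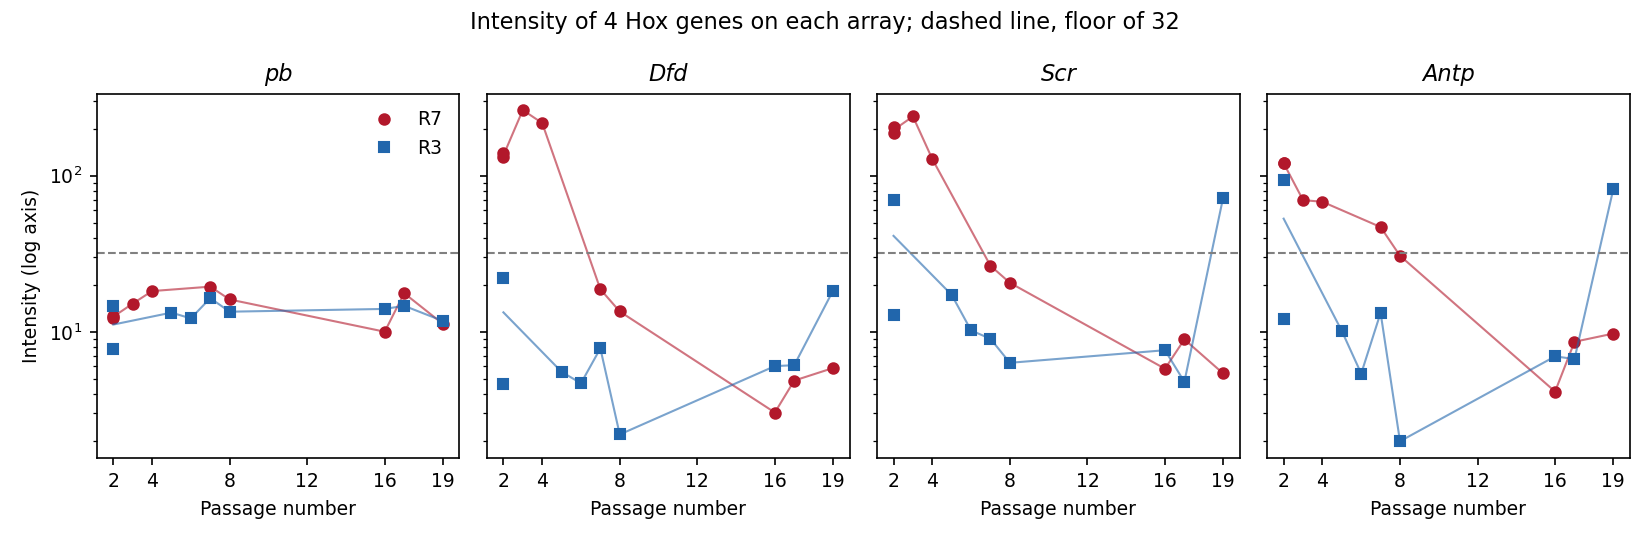
Intensity of pb, Dfd, Scr and Antp (log scale) on each of the 18 arrays, by passage, with R7 as circles, R3 as squares, lines through the mean at each passage and a dashed line at the floor of 32. In R7, Dfd, Scr and Antp are above the floor through P4 and below it at P16, P17 and P19, while pb is below it everywhere.

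Dfd gives the maxillary and mandibular segments of the head their identity. In R7 its intensity was 139 and 131 on the P2 replicates, 263 at P3 and 217 at P4. It was 18.7 at P7, 13.5 at P8, and 3.04, 4.87 and 5.86 at P16, P17 and P19. The highest value was at P3, P4 lay inside the range of the early arrays, and no array from P7 on was above the floor. Dfd averaged 4.59 ± 1.43 in R7 late and 178 ± 74.2 in R7 early (SD, n = 3 each), and the groups did not overlap. Its log2 change, R7 late minus early, was -2.40 ± 0.18 (SE), or at least 5.26-fold lower, with an adjusted p of 3.58e-06 (limma, Benjamini-Hochberg over 10200 tested probe sets). Values set to the floor add no spread, so only the R7 early arrays gave Dfd a spread within a group. Its SE, interval and p-values, here and below, can therefore be too small.

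Scr specifies the labial segment and the first thoracic segment, and in the embryo the salivary glands. In R7 it read 205 and 187 on the P2 replicates, 239 at P3 and 128 at P4. At P7 it was 26.5, at P8 20.6, and at P16, P17 and P19 it was 5.80, 8.94 and 5.41. P4 was thus below all 3 early arrays and still above the floor, and every later array was below it. Scr averaged 6.72 ± 1.94 in R7 late and 210 ± 26.6 in R7 early (SD, n = 3 each). The log2 change was -2.71 ± 0.29 (SE), at least 6.54-fold lower, with an adjusted p of 6.19e-05 in limma.

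Antp specifies the second thoracic segment and represses head structures such as antennae. On the R7 P2 replicates it was 120.06 and 120.19, at P3 69.7 and at P4 68.0. It was 46.9 at P7, 30.7 at P8 and 4.14, 8.63 and 9.74 at P16, P17 and P19. Antp was the only one of the 3 genes still above the floor at P7. It averaged 7.50 ± 2.97 in R7 late and 103 ± 29.1 in R7 early (SD, n = 3 each). The log2 change was -1.65 ± 0.40 (SE), at least 3.13-fold lower, with an adjusted p of 0.0126 in limma. Without R7 P2 replicate 2 its adjusted p was 0.0545, above the threshold of 0.05 (0.000144 to 0.0545 over the alternatives).

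Dfd, Scr and Antp were each called lower, in a comparison in which 11.2% of all tested probe sets were called lower. Dfd had passed the filter through its early and P4 arrays alone, so its call is not read against that share. The 3 genes lie in 1 complex and were measured on the same arrays, so they are not 3 independent observations. In bulk RNA, fewer cells that express a gene and less of its RNA per cell cannot be told apart.

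A second probe set of Antp followed the same course. It read 73.2 and 79.8 on the R7 P2 replicates, 65.0 at P3, 76.9 at P4, 32.1 at P7 and 19.9 at P8. At P16, P17 and P19 it read 7.69, 4.17 and 6.99. Its log2 change, R7 late minus early, was -1.18 ± 0.32 (SE), with an adjusted p of 0.0218 in limma. The third Antp probe set lay between 5.89 and 20.9 on all 18 arrays, below the floor on each. For pb, which specifies the adult mouthparts, values lay between 10.0 and 19.5 in R7 (median 15.2) and between 7.72 and 16.4 in R3 (median 13.5).

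Each member was then set against its own early level along the R7 passages. Relative to its own R7 early mean, Dfd was at 148% at P3 and 122% at P4, then at 10.5% at P7 and 7.598% at P8. Scr was at 114% at P3, 60.7% at P4, 12.6% at P7 and 9.79% at P8. Antp was at 67.5% at P3, 65.8% at P4, 45.4% at P7 and 29.7% at P8. At P3, then, Dfd and Scr were above their own early means while Antp was below its own. At P7, Antp was at the largest share of its early mean and was the only one above the floor. The P7 and P8 values of Dfd and Scr and the P8 value of Antp lay below the floor, so differences among those shares are not read. P3, P4, P7 and P8 are single arrays, and this order of the genes was not tested.

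**Figure D2:**
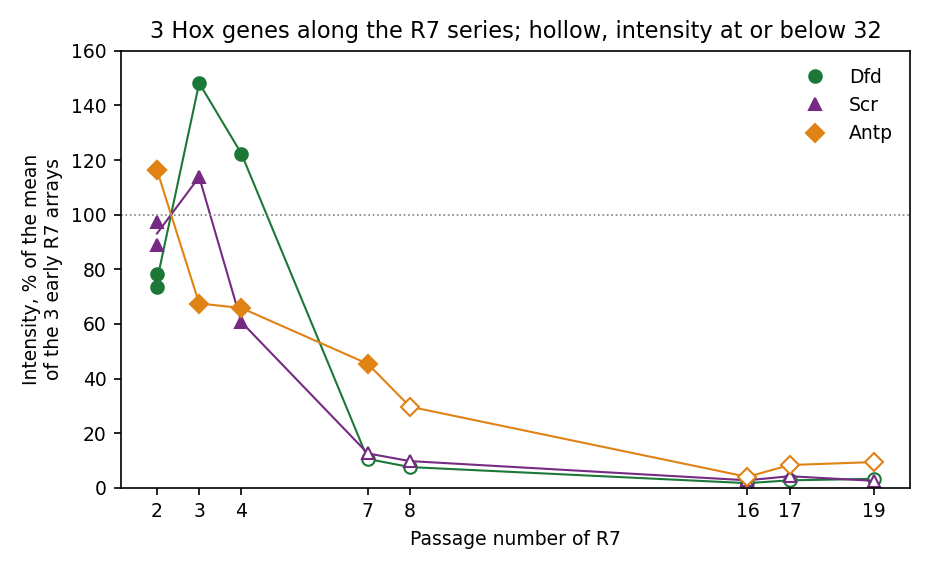
Intensity of Dfd, Scr and Antp on each R7 array as a percent of the gene's own R7 early mean, by passage, with hollow points where the intensity was at or below the floor of 32. At P7, Dfd and Scr are at 10.5% and 12.6%, and Antp at 45.4%.

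The intermediate stage was set against the early one to ask whether the loss was already present by P7 and P8. Dfd averaged 16.1 ± 3.71 in R7 intermediate (SD, n = 2), against 178 ± 74.2 in R7 early (n = 3). Scr averaged 23.5 ± 4.15 in R7 intermediate, against 210 ± 26.6 in R7 early. Both were below the floor on both intermediate arrays. Both were called, with adjusted p of 1.69e-05 for Dfd and 0.000331 for Scr in limma, beside 1.25% of all tested probe sets called lower. Dfd passed the filter through its R7 early and P4 arrays alone, so its call is not read against that share. Antp averaged 38.8 ± 11.5 in R7 intermediate and 103 ± 29.1 in R7 early. Its log2 change was -1.37 ± 0.44 (SE), with an adjusted p of 0.118. Antp was called without R3 P19, whose spread enters the shared error, with an adjusted p of 0.0445 (0.00225 to 0.493 over the alternatives). Dfd was no longer called when P4 was counted as intermediate (adjusted p = 0.118) or when the compared arrays were fitted alone (0.0698, highest 0.118 over the alternatives).

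From the intermediate to the late stage no member was called, beside 4.68% of tested probe sets called in either direction. Dfd and Scr lay below the floor on all 5 arrays of this comparison, so no further change could be read. The log2 change of Antp, R7 late minus intermediate, was -0.28 ± 0.44 (SE), with an adjusted p of 0.907 in limma.

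In R3 the same genes gave a broken picture. Dfd lay between 2.20 and 21.99 on the 9 R3 arrays, with a median of 6.03. Scr was 69.4 and 12.9 on the P2 replicates, between 6.33 and 17.2 from P5 to P8, and 7.62, 4.78 and 72.4 at P16, P17 and P19. Antp was 94.1 and 11.99 on the P2 replicates, between 1.99 and 13.2 from P5 to P8, and 6.96, 6.69 and 81.8 at P16, P17 and P19. For both Scr and Antp the early and late groups overlapped, and each group held 1 array above the floor. Those are R3 P2 replicate 1 and R3 P19, which were also close to each other over all tested probe sets. Both were nearer to the R7 early arrays than to any other R3 array. The mean absolute log2 difference of R3 P2 replicate 1 was 0.246 to 0.297 to the R7 early arrays and 0.333 to R3 P6. That of R3 P19 was 0.265 to 0.318 to the R7 early arrays and 0.371 to R3 P6. The second Antp probe set was above the floor on the same pair of R3 arrays, at 62.5 and 87.6.

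No member was called between R3 late and R3 early, where limma called 0% of tested probe sets (613 at an unadjusted p under 0.05). The log2 change of Scr, R3 late minus early, was -0.17 ± 0.33 (SE; adjusted p = 1), and that of Antp -0.33 ± 0.44 (0.987). The 95% interval of the Antp change ran from -1.28 to 0.63, and so leaves room for a level 2.43-fold lower as well as for a rise. Without R3 P2 replicate 2 and R3 P19, the log2 change was -1.12 for Scr, with an adjusted p of 0.000142, and -1.56 for Antp, with an adjusted p of 0.00664. R3 early then holds 1 array, assumed to vary like the other groups. Without R3 P2 replicate 1 the changes were 0.39 for Scr and 0.45 for Antp, of the opposite sign, and were not called.

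Between the lines, Dfd was above the floor in R7 alone. At the early stage Dfd averaged 178 ± 74.2 in R7 (SD, n = 3) and 13.3 ± 12.3 in R3 (n = 2). Scr averaged 210 ± 26.6 in R7 early and 41.2 ± 40.0 in R3 early, and Antp 103 ± 29.1 in R7 early and 53.0 ± 58.0 in R3 early. Every R7 early array was above both R3 early arrays for Dfd and Scr, whereas for Antp the R3 value of 94.1 lay inside the R7 range. The log2 difference, R7 minus R3, was 2.40 ± 0.21 for Dfd, at least 5.26-fold (adjusted p = 2.84e-05). It was 2.15 ± 0.33 for Scr, or at least 4.44-fold (adjusted p = 0.00316), and 0.87 ± 0.44 for Antp (adjusted p = 0.578). Of all tested probe sets, 0.961% were called higher in R7, and the call of Dfd is not read against that share, since Dfd passed the filter through R7 alone.

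With the compared arrays fitted alone the log2 differences were the same, and the adjusted p was 0.398 for Dfd and 0.465 for Scr, the highest over the alternatives for each. Both calls also ended with P4 counted as intermediate (0.0963 for Dfd, 0.0780 for Scr), and that of Scr at a floor of 16 (0.0800), with passage as a block (0.0711) and without R3 P2 replicate 2 (0.0597). Without both R3 P2 replicate 2 and R3 P19 the difference was 1.59 ± 0.10 for Scr (adjusted p = 9.73e-06) and 0.09 ± 0.27 for Antp (adjusted p = 0.981). At the late stage no member was called between R7 and R3, beside 7.63% of tested probe sets called in either direction. Dfd averaged 4.59 ± 1.43 in R7 late and 10.2 ± 7.08 in R3 late, Scr 6.72 ± 1.94 in R7 late and 28.3 ± 38.2 in R3 late, and Antp 7.50 ± 2.97 in R7 late and 31.8 ± 43.3 in R3 late (SD, n = 3 each). Only R3 P19 was above the floor among those 6 arrays, for Scr and for Antp, and without it the late difference was 0 for both.

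The change in R7 was then set against the change in R3. The difference in log2 change, R7 minus R3, was -2.54 ± 0.44 (SE) for Scr (adjusted p = 0.00675) and -2.40 ± 0.28 for Dfd (adjusted p = 0.000421), beside 1.26% of tested probe sets called lower. For Dfd this repeats the R7 change, since every R3 array was at the floor, and its call is not read against that share. The difference for Antp was -1.32 ± 0.59 (adjusted p = 0.276), and it was called without R3 P2 replicate 1 (0.0469, up to 0.934 over the alternatives). Counting P4 as intermediate ended the calls of Dfd (0.132) and Scr (0.0635), and that of Scr also ended with passage as a block (0.0749), with the compared arrays alone (0.0703) and at a floor of 16 (0.0559). Without both R3 P2 replicate 2 and R3 P19 the difference was -1.59 ± 0.13 for Scr and -0.09 ± 0.34 for Antp. Scr was then at the floor in both late groups, so its difference repeats the early difference between the lines.

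**Figure D3:**
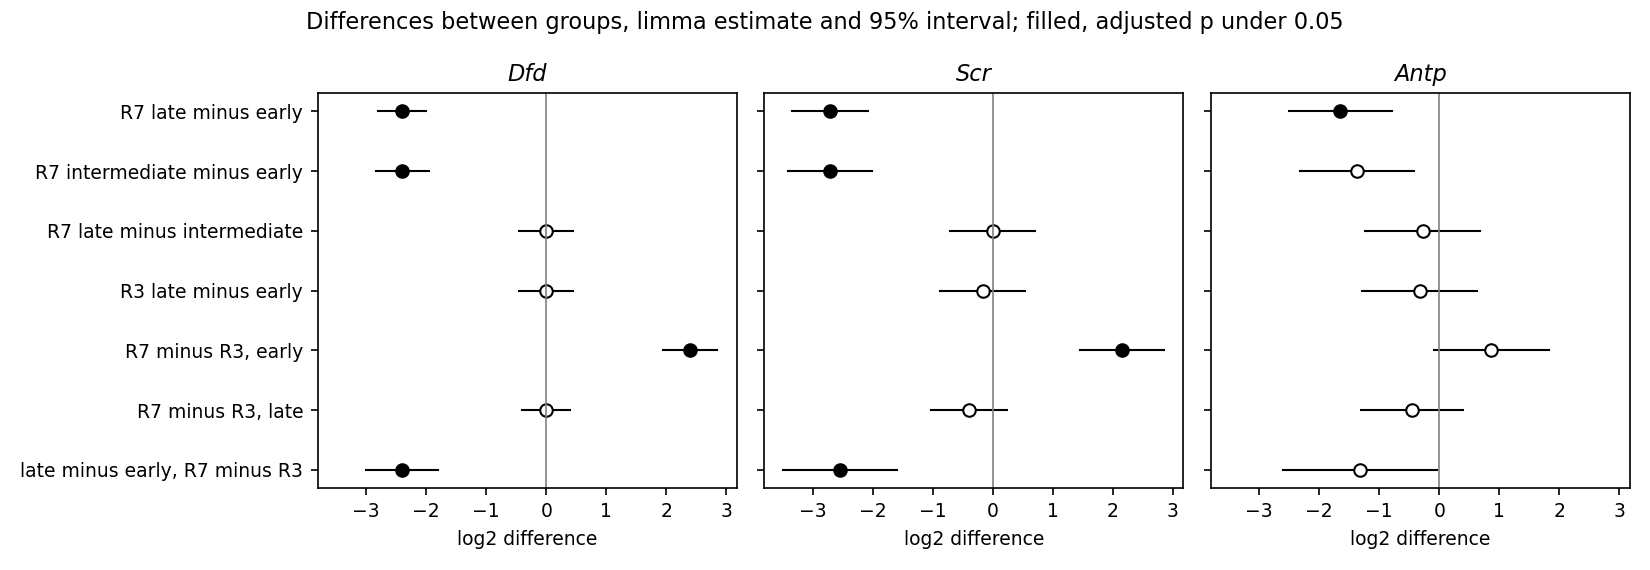
Log2 differences of Dfd, Scr and Antp with their 95% intervals from limma, for each comparison between stages and between lines, filled where the adjusted p was under 0.05. The intervals of Dfd and Scr lie below 0 for R7 late minus early, and those of Scr and Antp span 0 for R3 late minus early.

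Most genes that lie between the members were below the floor throughout. Of 20 protein-coding genes from lab to Antp in the RefSeq order (assembly Release 6, used for names and order only), 14 had a named probe set. Of these, 9 were above the floor on no array, among them pb, the homeobox genes zen, bcd and ftz, and the cuticle genes measured beside pb. Only 5 were above it on at least 2 arrays: Dfd, Scr, Antp, zen2 and Ama.

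The homeobox gene zen2 was above the floor on all 18 arrays, between 35.6 and 73.7. Its log2 change, R7 late minus early, was 0.04 ± 0.27 (adjusted p = 0.959). Ama encodes amalgam, a secreted immunoglobulin-domain adhesion protein, and lies between bcd and Dfd. It ranged from 226 to 1392 and was above the floor on every array. Its log2 change was -1.07 ± 0.51 in R7 late minus early (adjusted p = 0.164) and 1.67 ± 0.57 in R3 late minus early (adjusted p = 0.768). Neither passed the threshold, nor did the difference between them (-2.74 ± 0.77, adjusted p = 0.0780). Without R3 P2 replicate 2 and R3 P19 all 3 were called. The log2 change of Ama was then -1.07 ± 0.34 in R7 (adjusted p = 0.0348) and 2.25 ± 0.50 in R3 (adjusted p = 0.0184), with a difference of -3.32 ± 0.61 (adjusted p = 0.0133).

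**Figure D4:**
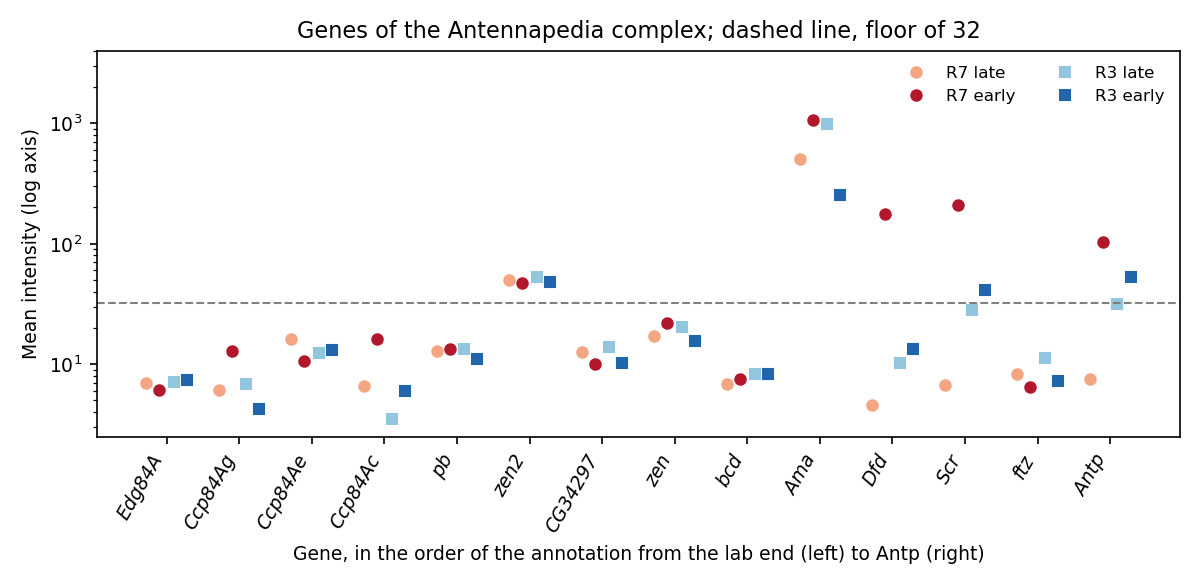
Mean intensity (log scale) of the 14 measured protein-coding genes of the Antennapedia complex in their RefSeq order, 1 point per group, for R7 late, R7 early, R3 late and R3 early, with a dashed line at the floor of 32. Dfd, Scr and Antp have R7 late means below the floor and R7 early means above it, zen2 and Ama are above it in all 4 groups, and the other 9 are below it in all 4.

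The genes whose pattern over the 18 arrays was closest to each member were found by the mean absolute difference in centred log2 intensity. For Dfd they were btd, a zinc finger gap gene of the head (0.303), Scr (0.314) and Picot, a predicted phosphate cotransporter (0.336). For Scr they were caup, an Iroquois homeobox gene (0.199), Picot (0.265) and cDIP, a cell surface protein gene (0.279). For Antp they were Npc2b, a sterol-binding protein gene (0.152), Cyp4g1, a cytochrome P450 gene of cuticular hydrocarbon synthesis (0.157), and CG12655 (0.192). The members' own mean absolute deviations were 0.860 for Dfd, 0.920 for Scr and 0.644 for Antp, so each near pattern was well within the member's own spread. These genes were picked for their likeness, and their values are a description.

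The head gene btd was 106 and 94.4 on the R7 P2 replicates, 138 at P3, 73.8 at P4, 38.8 at P7 and 39.4 at P8. It was 13.6, 13.6 and 15.8 at P16, P17 and P19, and at most 14.0 on any R3 array. Like Dfd it was above the floor in R7 only, and unlike Dfd it was still above the floor at P7 and P8. In R7, caup was 168 and 154 at P2, 138 at P3, 88.1 at P4, 13.0 at P7 and 13.3 at P8. It was 4.11, 6.69 and 5.72 at P16, P17 and P19. In R3, caup was above the floor on P2 replicate 1 (136) and P19 (99.0) and nowhere else, the same pair of arrays as Scr.

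The other TALE homeobox genes, the class to which exd and hth belong, include the Iroquois genes. The list held 5 genes, all tested, and 2 were called lower and 0 higher in R7 late against R7 early, beside 11.2% and 8.75% of all tested probe sets, with a median log2 change of -2.17 beside -0.03 over all tested probe sets. Both that fell are Iroquois genes, caup (log2 change -2.26 ± 0.45, at least 4.78-fold, adjusted p = 0.00503) and ara (-2.17 ± 0.65, at least 4.50-fold, adjusted p = 0.0349). The third Iroquois gene, mirr, had a log2 change of -2.57 ± 0.85 and an adjusted p of 0.0500164, just above the threshold. In R3, ara (195 and 199) and mirr (335 and 362) were at their highest on P2 replicate 1 and P19. The Iroquois genes had alike courses on the same arrays, so they are not independent observations. The TGIF-like genes vis (0.48 ± 0.17, adjusted p = 0.0571) and achi (0.15 ± 0.13, adjusted p = 0.443) were above the floor on all 18 arrays. The count of 2 lower was 1 without any single R7 late array or either R7 P2 replicate, and 3, with mirr, without R3 P2 replicate 2 and R3 P19.

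Polycomb group genes were examined as the silencers that keep Hox genes off. Of 17 tested, 7 were higher and 0 lower in R7 late against R7 early, beside 8.75% of tested probe sets called higher, with a median log2 change of 0.17 beside -0.03 over all. Pc, the chromodomain subunit that binds methylated histone H3, averaged 194 ± 1.49 in R7 late and 143 ± 12.8 in R7 early (SD, n = 3 each; log2 change 0.44 ± 0.08, adjusted p = 0.00368). E(z), the histone methyltransferase subunit, averaged 340 ± 18.8 in R7 late and 267 ± 22.7 in R7 early (log2 change 0.35 ± 0.08, adjusted p = 0.00843). Su(z)12, a partner of E(z), changed by 0.40 ± 0.09 (adjusted p = 0.0102), and Jarid2, an accessory subunit of the same complex, by 0.55 ± 0.12 (adjusted p = 0.00839). In Pc, every R7 late value (193 to 196) was above every R7 early one (130 to 156).

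The log2 changes of these 4 genes were smaller in size than those of the members. Between R7 intermediate and R7 early 0 of the 17 were called, where 1.23% of all tested probe sets were called higher. In R3 late against R3 early 0 of 17 were called, where no probe set was, and 0 of 17 without R3 P2 replicate 2 and R3 P19, where 3.95% of probe sets were called higher. At P4, P7 and P8 the genes took different courses: Pc was 161, 151 and 157, and Su(z)12 was 763, 816 and 808, against an R7 early mean of 678. Psc, a subunit of the other main Polycomb complex, which was picked here after its values were seen, was 230, 220 and 221 at those passages, against 239 ± 13.1 in R7 late and 143 ± 17.5 in R7 early. Its log2 change, R7 intermediate minus early, was 0.63 ± 0.20 (adjusted p = 0.113). With array medians made equal, the median log2 change over all probe sets in R7 late minus early moved from -0.03 to 0.15. The list's own median of 0.17 is as deposited and is not given at that scaling, so these medians are not compared. The share of all R7 late minus early calls that were higher was then 71.5%, against 43.9% as deposited.

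Trithorax group genes, the opposing set, were called in both directions. Of 21 tested, 5 were higher and 1 lower in R7 late against R7 early, beside 8.75% and 11.2% of all tested probe sets, with a median log2 change of 0.02. The 5 were Rbbp5 (0.48, adjusted p = 0.00435), a subunit of histone H3 methyltransferase complexes, skd (0.65, 0.0103) and kto (0.41, 0.0122), subunits of the Mediator kinase module, and Snr1 (0.39, 0.0190) and brm (0.37, 0.0440), subunits of the Brahma remodelling complex. Mnn1, the fly menin gene, changed by -0.77 (adjusted p = 0.0114), and was not tested at a floor of 64, where it was filtered out. The count of 5 was 1 without R7 P19, 2 without R7 P2 replicate 2 or with the compared arrays alone, and 3 without R7 P16.

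Of 10 tested genes that Hox proteins act on or with, 2 were lower and 0 higher in R7 late against R7 early, beside 11.2% and 8.75% of all tested probe sets, with a median log2 change of -0.16. Those were dpp, a BMP ligand gene and a Hox target in the gut (-1.60 ± 0.25, at least 3.04-fold, adjusted p = 0.00105), and salm, a zinc finger gene (-2.21 ± 0.50, at least 4.63-fold, adjusted p = 0.00905). The log2 change was -1.38 ± 0.54 for kn, a COE-family transcription factor gene (adjusted p = 0.0924), and 0.38 ± 0.23 for disco (adjusted p = 0.267), whose protein acts with Dfd and Scr in the head. At the intermediate stage, 3 genes of the list were higher than in R7 early, beside 1.23% of tested probe sets called higher. They were disco (log2 change 1.37, adjusted p = 0.00943), its paralog disco-r (1.84, 5.17e-07) and salr, the paralog of salm (1.35, 0.00727). All 3 were at the floor in R3 early and R3 late, and salr also in R7 late. Their calls are therefore not read against that share. In R7 late minus early, disco-r (0.02) and salr (-0.20) were, like disco, not called. From R7 intermediate to R7 late, 4 of the 10 were called lower and 0 higher. Beside them, 4.68% of tested probe sets were called in either direction, and 43.2% of those calls were higher. The 4 were salm, disco, disco-r and salr. For disco, disco-r and salr the fall follows the rise given above, and is likewise not read against that share. Dfd and Scr were below the floor in R7 intermediate and R7 late.

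Segmentation regulators, which set the early domains of Hox expression in the embryo, changed in both directions. Of 6 tested, 2 were higher in R7 late against R7 early, Kr (log2 change 5.04, adjusted p = 3.27e-05) and opa (3.81, 5.29e-08). Another 2 were lower, gt (-1.64, adjusted p = 0.00790) and odd (-1.04, 0.0264), beside 8.75% of all tested probe sets called higher and 11.2% lower. In R7 intermediate, R7 late, R3 early and R3 late odd was at the floor, so its call is not read against that share. Kr (3.87, adjusted p = 0.00172) and opa (1.82, 0.000245) were already higher, and gt (-1.75, 0.0365) already lower, in R7 intermediate against R7 early. The count of 2 lower was 1 without any single R7 late array or either R7 P2 replicate, and 0 without the dimmest 30% of probe sets.

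**Figure D5:**
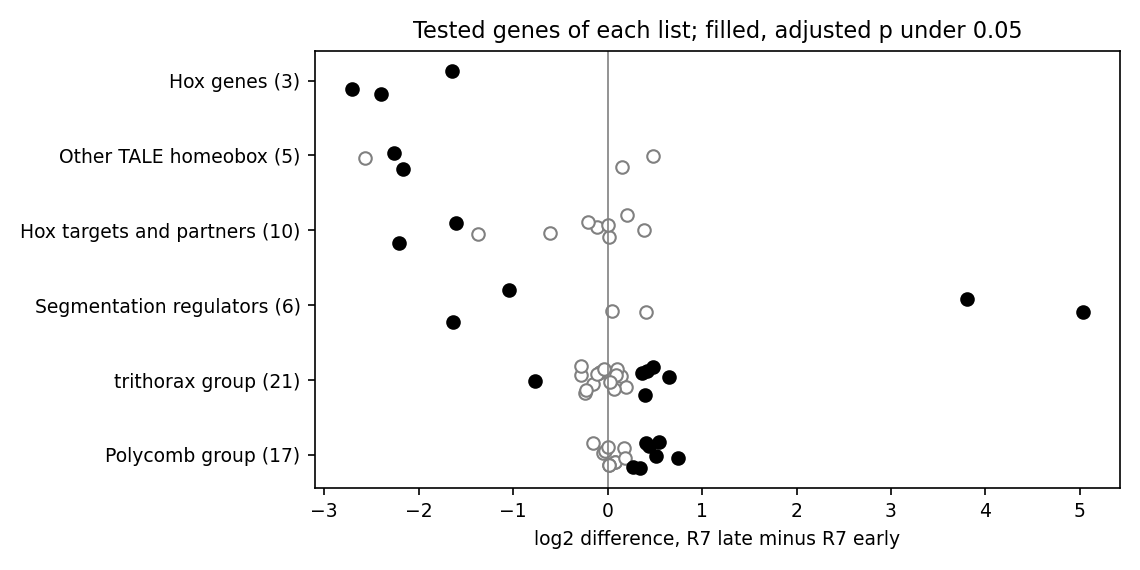
Log2 change, R7 late minus early, of each tested gene of the lists, 1 point per gene, filled where the adjusted p was under 0.05, with small vertical offsets that carry no value and the number of tested genes beside each list. The Hox members lie between -2.71 and -1.65, and 7 of the 17 Polycomb group genes are called higher.

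Markers of other cell types moved over the same passages, and their part in the members' course was not tested. The counts that follow stand beside 11.2% of all tested probe sets called lower and 8.75% called higher. Of the genes counted, Fbp1 (fat body) and pros and dpn (neural) were at the floor in R7 intermediate, R7 late, R3 early and R3 late. Their calls are therefore not read against those shares. Haemocyte markers summed to 2324 to 4464 in R7 late and 5168 to 15238 in R7 early, and 6 of 10 fell. Fat body markers summed to 139 to 176 in R7 late and 412 to 2075 in R7 early, and 2 of 3 tested fell, while Lsp2 and Yp1 were below the floor on the R7 arrays. Neural markers summed to 692 to 986 in R7 late and 1237 to 1389 in R7 early, with 5 of 7 tested lower and nSyb below the floor. Epithelial and tracheal markers summed to 595 to 840 in R7 late and 956 to 1057 in R7 early, with vvl and crb lower and btl higher. Muscle precursor markers summed to 8175 to 9472 in R7 late and 5766 to 6968 in R7 early, with twi and kirre higher and Him lower.

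The haemocyte sum was 2843 at P4, 6222 at P7 and 5050 at P8, and the fat body sum was 220 at P4, 194 at P7 and 176 at P8. Dfd was 217 at P4, 18.7 at P7 and 13.5 at P8. The neural sum was 1099 at P4, 1138 at P7 and 1067 at P8. The epithelial and tracheal sum was 1942 at P4, 2102 at P7 and 1716 at P8. The muscle precursor sum was 7108 at P4, 6512 at P7 and 6664 at P8. On R3 P2 replicate 1 and R3 P19, where Scr and Antp were above the floor, the epithelial and tracheal sum was 1487 and 1362, against 384 to 641 on the other 7 R3 arrays. The fat body sum was 724 and 636 on that pair, against 164 to 228 on the others. The neural sum was 1140 and 1049, against 630 to 905. The haemocyte sum, 6253 and 5552, lay inside the range of the others (5467 to 8604). The muscle precursor sum, 6750 and 6008, lay below that of the others (7764 to 10206).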

How the data were processed

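Total RNA of 18 samples was hybridised as biotinylated cRNA to Affymetrix 3' expression arrays, per the labels' protocols. The authors deposited 1 linear intensity per probe set and array, after a summarisation and scaling whose method is not given in the sources used here. Of 18952 probe sets, 183 were controls. GEO's platform annotation gave 13647 probe sets 1 symbol, 402 several and 4720 none. Values under 32 were set to 32 before log2, so a difference against a group at that floor is a lower bound, from group means of log2 values. Such a group also adds no spread to the shared error, so standard errors, intervals and p-values can be too small. The 10200 probe sets above 32 on at least 2 arrays were fitted with limma 3.58.1 in R 4.3.3 (7 group means, 11 residual degrees of freedom, empirical Bayes, Benjamini-Hochberg, threshold 0.05). The script was tested on simulated data. The number of arrays limits the precision.

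The 10 members and the lists were chosen with earlier results of these data known. Named genes were all members, the 3 nearest patterns to each tested member, up to 4 genes per list by adjusted p in R7 late minus early, and genes behind counts of 5 or fewer. Alternatives were other floors, filters, scalings, priors, placements of P4 and blocks, fits of the compared arrays alone, and leaving out arrays.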

Additional observations from a re-analysis of the deposited data

Results flagged for a closer look

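A difference between the lines in the change with passage was called for Scr and for Dfd. Values under the floor were set to it, so a change below the floor in either line could not be read. For Scr the log2 change, late minus early, was -2.71 in R7 and -0.17 in R3, a difference of -2.54. Without R3 P2 replicate 2 and R3 P19 the Scr change in R3 was -1.12, and both late groups were at the floor. The Scr difference of -1.59 then repeats the early difference between the lines (1.59). For Dfd the log2 change was -2.40 in R7 and 0 in R3, where every array was at the floor, a difference of -2.40. The Dfd difference thus repeats the R7 change, and cannot tell whether Dfd also fell in R3 below the floor. Both calls ended with P4 counted as intermediate (adjusted p in limma 0.132 for Dfd and 0.0635 for Scr). That of Scr also ended at a floor of 16 (0.0559), with passage as a block (0.0749) and with the compared arrays alone (0.0703).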

How the results depend on the processing

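No result changed sign past the threshold under any alternative. The R7 late minus early calls of Dfd and Scr held in every alternative that tested them. Without the dimmest 30% of probe sets no member was tested. For R7 late minus early, 2031 probe sets were called, against 1231 with no filter. For R7 intermediate minus early the count was 253, against 154 with no filter, 79 without the dimmest, 43 and 418 with P4 as early and as intermediate, and 1101 without R3 P2 replicate 2 and R3 P19. There 2 members were called, against 1 with the compared arrays alone or P4 as intermediate. For R7 late minus intermediate it was 477, against 187 with the compared arrays alone, 289 with no filter, 952 with P4 as intermediate, 881 without the pair of R3 arrays and 306 without the dimmest. For R3 late minus early it was 0, against 1 with no filter and 1064 without that pair, where 2 members were called. For R7 minus R3 early it was 109, against 0 with the compared arrays alone, 42 with P4 as early, 244 with passage as a block, 62 at a floor of 64, 195 without the pair and 31 without the dimmest. There 2 members were called, against 0 with P4 as intermediate or with only the compared arrays and 1 at a floor of 16 or with passage as a block. For R7 minus R3 late it was 778, against 188 with the compared arrays alone and 294 with passage as a block. For the difference between lines it was 297, against 130 with the compared arrays alone, 470 with equal medians, 469 without the pair and 188 without the dimmest. There 2 members were called, against 1 at a floor of 16, with passage as a block or with the compared arrays alone, and 0 with P4 as intermediate. Fits of the compared arrays alone and fits without arrays hold fewer samples, and the other causes were not tested.

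Leaving out each array in turn gave 996 (without R7 P19) to 2591 calls for R7 late minus early with 2 to 3 members, and 144 to 854 (without R7 P3) for R7 intermediate minus early with 2 to 3 members. It gave 148 (without R7 P7) to 649 for R7 late minus intermediate, 0 to 111 (without R3 P19) for R3, and 376 (without R7 P19) to 886 for R7 minus R3 late, each with 0 members. It gave 79 to 416 (without R7 P3) for R7 minus R3 early with 1 to 2 members, and 136 (without R3 P2 replicate 2) to 682 (without R7 P3) for the difference between lines with 2 to 3 members.

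The share of calls that were higher was 43.9% as deposited, 63.998% after quantile normalization and 71.5% with equal medians for R7 late minus early, and 49.4%, 66.7% and 65.5% in that order for R7 intermediate minus early. It was 43.2% as deposited and 53.4% after quantile normalization for R7 late minus intermediate, 69.2% and, with equal medians, 79.8% for R7 minus R3 late, and 56.6%, 69.0% and 82.3% for the difference between lines. Equal medians moved the median of all probe sets by more than the other scalings, to 0.15 for R7 late minus early, -0.17 for R7 minus R3 early and 0.23 for the difference between lines.

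The labels number the P2 replicates in both lines, but the differences between them did not correlate (r = -0.00866), so the numbers do not pair the samples. With the replicate number as a block, 2004 probe sets and 3 members were called for R7 late minus early, 243 and 2 for R7 intermediate minus early, 98 and 2 for R7 minus R3 early, and 299 and 2 for the difference between lines. The block ended no call of a member.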
